A study of Drosophila melanogaster with 6 samples.

Results

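The regions described here are those enriched for the histone variant H2Av in the interior of 3R, the right arm of chromosome 3 of Drosophila melanogaster. A region was a member when its midpoint lay more than 2 Mb from either end of the arm. Of the 4403, 5016 and 4763 regions in the lists of ChIP replicates 1, 2 and 3, 745, 825 and 789 were members, which is 16.9%, 16.4% and 16.6% of each list. Of the 5905 regions in the list made for the replicate set (the combined list), 953 were members (16.1%). The series located H2Av by chromatin immunoprecipitation and sequencing (ChIP-seq) with the antibody labelled H2AV 9751, in embryos aged 14 to 16 h of the wild-type strain Oregon-R. There are 3 ChIP libraries, each set by the authors against 1 of 3 input libraries, that is, against chromatin that was not immunoprecipitated. Regions are listed for the ChIP libraries alone. All libraries are from whole embryos, so a region may come from some cell types and not others.

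H2Av is the only H2A variant of the fly and does the work that H2A.Z and H2A.X divide between them in mammals. In the H2A.Z role it sits in nucleosomes near the starts of genes, where it takes part in transcription, and it is also known for a part in heterochromatin formation. In the H2A.X role its tail is phosphorylated beside DNA breaks. The interior of a fly arm is mostly euchromatin, with gene-dense and gene-poor stretches side by side. Positions are on FlyBase release 5. Regions are named by position alone, without a gene annotation.

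H2Av lay on the 3R interior as separate regions a few kilobases wide, gathered in groups with long empty stretches between them. The regions held 15.6%, 17.7% and 17.6% of the bases of the interior in replicates 1, 2 and 3 (mean 16.9% ± 1.16, SD, n = 3). Replicate 1 was the lowest. The number of regions was 31.2, 34.5 and 33.0 per Mb (mean 32.9 ± 1.68, SD, n = 3). In all, 3.52 Mb of the 3R interior lay inside regions of every replicate, which is 76.3% of the 4.61 Mb that lay inside a region of any. The labels do not state that each replicate had its own embryo collection. An SD over replicates is therefore the spread of these samples alone and may be technical. The depth behind a region is unknown.

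The profile along the arm was then read in windows of 250 kb, counted from the centromere side, with 95 full windows. Averaged over replicates, a window had between 0 and 53.1% of its bases inside regions, with a median of 15.0%. The middle portion of the distribution, from the 25th to the 75th percentile, spanned 9.71% to 21.6%. The spread between replicates was small beside this, with a median SD of 1.14 percentage points over the windows and at most 4.07. The Spearman correlation of the shares between pairs of replicates was 0.989 to 0.993 across the 95 windows, which share the mappability and base composition of the same sequence. The windows that held 50% of the region bases made up 28.1% ± 0.61 of all windows (SD, n = 3), against 27.4% on X, 25% on 2L and 27.6% on 3L.

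**Figure D1:**
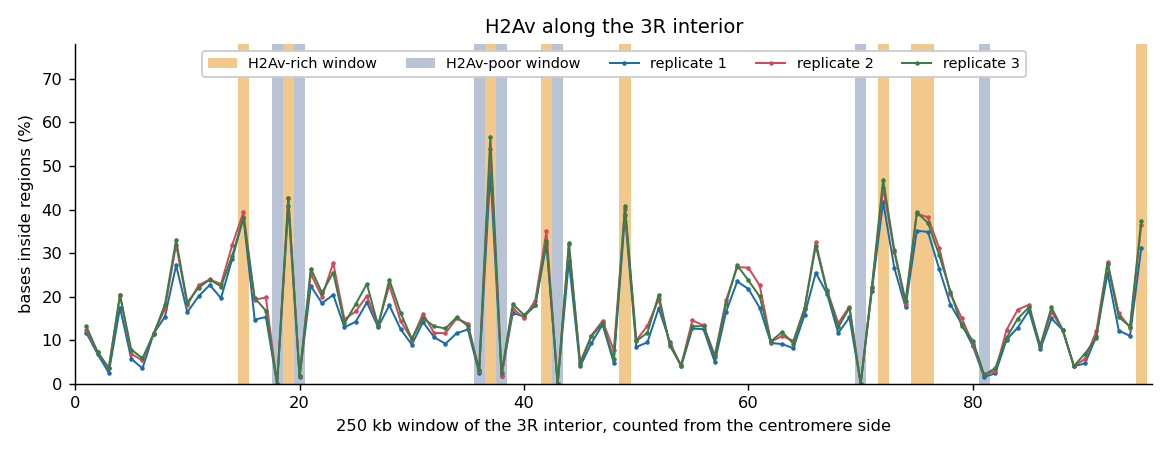
Share of bases inside H2Av regions (%) in each 250 kb window of the 3R interior, by replicate, with H2Av-rich windows shaded orange and H2Av-poor windows shaded blue. The 3 replicates trace the same profile, which peaks at window 37 and falls to 0 at windows 18, 43 and 70.

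H2Av-rich windows were those at or above the 90th percentile of the mean share over the windows of 4 arm interiors (3R, X, 2L and 3L together), which was 31.4%. H2Av-poor windows were those at or below the 10th percentile, which was 2.91%. On 3R, 9 windows were rich, or 9.47%, against a background of 10.1% over the 326 windows of the 4 interiors and 10.4% on X, 2L and 3L. On 3R, 7 windows were poor, or 7.37%, against the same background of 10.1% and 11.3% on X, 2L and 3L. Neither share stands far from the background. With windows begun midway between these, 3R had 10 rich and 11 poor of 95. X then had 6 and 4 of 73, 2L 10 and 12 of 75, and 3L 7 and 6 of 81. Since the windows were chosen on their share, the shares below are a description. At the limits, the lowest rich window had 33.3% ± 1.51 and the highest window just below the class had 30.9% ± 2.29, whereas the highest poor window had 2.86% ± 0.33 and the next one up 2.95% ± 0.61 (SD, n = 3).

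The richest window of 3R ran from 11000001 to 11250000. Regions held 48.7%, 53.9% and 56.7% of it in replicates 1, 2 and 3, and every replicate placed it first on the arm. It held 18, 21 and 23 regions, at a median score percentile of 84.7, 80.9 and 80.3. The score is a value the authors gave each region, and the percentile is the region's rank by score within its whole list, so these regions ranked high in every replicate. The window from 19750001 to 20000000 came next, with 41.7%, 45.0% and 46.9%, and then the window from 6500001 to 6750000, with 40.8%, 42.6% and 42.8%. The fourth was the window from 14000001 to 14250000, with 38.7%, 40.2% and 40.9%. The fifth, from 5500001 to 5750000, had 38.2%, 39.4% and 38.1%, in 11 regions in each replicate. It reached its share with fewer regions, of 5487, 5449 and 7302 bp median width. These 5 windows held the first 5 places in replicates 1 and 2, and in replicate 3 the window from 20500001 to 20750000 took the fifth.

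A single rich block was longer than 1 window. It joined 2 windows from 20500001 to 21000000 and had 35.0%, 38.6% and 38.1% of its bases inside regions, in 33, 31 and 31 regions. The other rich windows were the one from 12250001 to 12500000, with 32.1%, 35.0% and 32.8%, and the one from 25500001 to 25750000, with 31.2%, 36.4% and 37.3%. No poor block was longer than 1 window. The longest rich blocks were of 2 windows on X and 1 on 2L and 3L, and the longest poor blocks of 1 window on X and 2 on 2L and 3L. The Spearman correlation of a window with the next one was 0.10 on 3R (94 pairs of windows) and 0.18, 0.21 and 0.18 on X, 2L and 3L.

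At the other end, 3 of the 95 windows of 3R had no base inside a region in any replicate. Over the 4 interiors 13, 9 and 10 of 326 windows had none in replicates 1, 2 and 3, and 2L had 7, 4 and 5 of 76. The 3 windows of 3R ran from 6250001 to 6500000, from 12500001 to 12750000 and from 19250001 to 19500000. The combined list had no base in the first and second and 0.47% of the third, in a region that no replicate had. The window from 6750001 to 7000000 followed with 1.57%, 1.75% and 1.76%, in 2 regions in each replicate. The window from 22000001 to 22250000 had 1.58%, 2.16% and 2.04%. The remaining poor windows, from 11250001 to 11500000 and from 10750001 to 11000000, had means of 2.05% ± 0.35 and 2.86% ± 0.33 (SD, n = 3).

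Rich and poor windows lay side by side on 3R. Of its 9 rich windows 3 touched a poor window, and of its 7 poor windows 5 touched a rich window, which gave 5 borders between a rich and a poor window among 94 borders. X, 2L and 3L had 1 such border each, among 72, 75 and 81. The count depends on where windows begin: with windows begun midway between these it was 2 on 3R against 0, 1 and 0, and with windows of 100 kb it was 7 on 3R against 2, 1 and 2. These borders were counted after the windows were seen, with no test, and nothing is called particular to 3R from them.

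Bins of 50 kb were read across these borders. The windows were classed on the shares of the same replicates, so a step at a border is largely built in. The rich window from 6500001 to 6750000 had 30.2% to 68.8% of bases inside regions in its 5 bins (means of 3 replicates), and all 5 bins on its centromere side were at 0 in every replicate. On its telomere side the nearest bin had 4.82% ± 0.12 (SD, n = 3) and the next 3 were at 0. The richest window, from 11000001 to 11250000, had 17.8% to 82.1% in its bins, and 3 of 5 bins on its centromere side and 4 of 5 on its telomere side were at 0. The window from 12250001 to 12500000 had 5.21% to 63.3%, and was bordered on its telomere side by 5 bins at 0, while on its centromere side none of 5 was at 0 in every replicate. At the 5 borders the nearest bin on the poor side was at 0 in every replicate 3 times and had 4.82% once. On the telomere side of the richest window the nearest bin on the rich side had 10.6%, 20.8% and 21.9% in replicates 1, 2 and 3 and the nearest on the poor side 0 in each. The second bin on that poor side had 9.29%, 9.14% and 12.3%, so the step was not clean. On the centromere side of the richest window the nearest rich bin had 41.6%, 44.4% and 50.7%. The nearest poor bin there had 9.61%, 11.3% and 11.9%.

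To read the classes on lists that did not choose them, windows were chosen in 1 replicate and read in the others. The 9 windows rich in replicate 1 had 35.0% to 53.9% in replicate 2 and 32.8% to 56.7% in replicate 3, and all 9 were also rich there. The remaining windows reached at most 32.5% and 32.9%. Replicate 3 had 11 rich windows of its own, so the 9 were 81.8% of those. The 7 windows poor in replicate 1 had 0 to 2.86% in replicate 2, where all 7 were poor, and 0 to 3.60% in replicate 3, where 6 of 7 were poor. The rest of the arm started at 2.98% and 3.12%, so the groups did not overlap in replicate 2 and overlapped slightly in replicate 3.

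Rich windows held more regions, and the regions were wider and ranked higher. In rich windows of 3R there were 64.6 ± 0.51 regions per Mb, against 31.5 ± 2.03 in windows of neither class and 4.76 ± 0.33 in poor windows (SD, n = 3). The median width was 4744 ± 17.8 bp, 3710 ± 122 bp and 2287 ± 64.8 bp in the same order. Number and width make up the share by which the windows were chosen, so these orders are built in. The median score percentile, which the choice did not use but which follows width, was 65.3 ± 2.17, 55.0 ± 1.01 and 26.3 ± 6.00 (SD, n = 3). Poor windows held few regions in which to rank, 8, 8 and 9 in the 3 replicates. Together the 9 rich windows held 22.5% ± 0.48 of all region bases of the 3R interior and the 7 poor windows 0.53% ± 0.029.

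Over longer distances the 3R interior varied less. Split into 4 parts of equal length, counted from the centromere side, it had 17.9% ± 1.22, 15.3% ± 1.11, 16.3% ± 1.15 and 18.3% ± 1.20 of bases inside regions (SD, n = 3). Part 2 was the lowest and part 4 the highest in every replicate. The highest and lowest parts differed by 3.04 ± 0.29 percentage points, against 5.88 ± 0.79 on X, 12.3 ± 0.75 on 2L and 5.42 ± 0.38 on 3L (SD, n = 3). The range on 3R was the smallest of the 4 interiors in every replicate, with 2.92, 3.38 and 2.83 points. The parts are longer on 3R, at 5.98 Mb, than on X (4.61 Mb), 2L (4.75 Mb) and 3L (5.14 Mb), and whether length bears on this order was not tested. Rich windows were spread over the parts as 2, 2, 2 and 3 and poor windows as 2, 3, 1 and 1.

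The empty stretches of 3R were long, as on the other interiors. Among the 5 longest of 3R, the ends varied between replicates by amounts from 111 bp to 19722 bp. The longest stretch without a region in any replicate was 345 kb on X, 637 kb on 2L and 412 kb on 3L. That of 3R ran from 23791558 to 24159880 (368 kb), with 1718 bases inside combined regions. Each replicate had its own gap there of 369, 368 and 369 kb, and the positions of the 2 ends varied by 245 and 111 bp between replicates. The region that closed it on the centromere side was among the strongest of every list, at score percentile 99.8, 99.1 and 99.5. That on the telomere side was at 71.2, 60.4 and 65.6. The 50 kb before this stretch had 78.2% of bases inside regions and the 50 kb after it 20.2% (means of 3 replicates).

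The second stretch, from 12482305 to 12802315 (320 kb), covered the whole of the empty window named above. Regions of 18751, 19211 and 17728 bp closed it on the centromere side, at percentile 92.7, 92.1 and 93.6, and that end varied by 113 bp. Its telomere-side end varied by 10817 bp, because replicate 3 alone had a region of 1577 bp there, at percentile 0.13. The third stretch, from 19200065 to 19503490 (303 kb), had ends that varied by 10182 and 648 bp, and its border regions were of low or middle rank, at percentile 13.8, 4.94 and 14.7 on the centromere side and 53.9, 47.3 and 50.5 on the telomere side. The fourth, from 11321127 to 11609768 (289 kb), had no base in the combined list, and its ends varied by 386 and 1060 bp. The fifth ran from 2606359 to 2882764 (276 kb), where the replicates had gaps of 304, 276 and 293 kb and the ends varied by 19722 and 8226 bp. Mappability of these stretches was not analysed here.

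In all, 55 stretches of the 3R interior were at least 100 kb long and 107 at least 50 kb, against 44 and 75 on X, 46 and 87 on 2L and 47 and 89 on 3L, whose interiors are shorter. The stretches of at least 50 kb took up 55.4% of the 3R interior, against 51.1%, 62.0% and 54.9% on X, 2L and 3L. A strong border region such as that of the longest stretch was not the rule. The regions next to stretches of at least 100 kb had a median score percentile of 50.6 ± 3.02 on 3R, a difference of -5.93 ± 3.11 from that of all members (SD, n = 3). The same difference was -10.8 ± 3.39 on X, -8.45 ± 2.56 on 2L and -6.64 ± 2.30 on 3L, so it is not particular to 3R.

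Within a list, spacing was very unequal. The gap between neighbouring members had a median of 4942, 4173 and 4469 bp in replicates 1, 2 and 3, whereas its mean was 25.1 ± 1.63 kb (SD, n = 3). Of the gaps, 30.6% ± 1.20 were under 2 kb, against 32.5% ± 1.01 on X, 31.5% ± 0.67 on 2L and 34.4% ± 1.17 on 3L. The 116, 110 and 109 gaps of at least 50 kb held 72.1%, 70.2% and 70.5% of all bases between members. Split at those gaps, the members of a replicate fell into 113 ± 3.79 groups (SD, n = 3), of which 17.3 ± 3.79 were a single region. Groups of at least 10 regions numbered 22, 30 and 24 and held 51.0%, 61.8% and 53.6% of the members. The mean of 55.5% ± 5.64 lay among the 65.1% ± 4.76 of X, 52.3% ± 5.51 of 2L and 56.7% ± 3.83 of 3L (SD, n = 3). In replicates 1 and 3 the group with the most regions was the same, from 25415787 to 25884740 in replicate 1, with 33 and 37 regions. In replicate 2 it was from 19715257 to 20189543, with 35. The groups took up 40.9% ± 1.66 of the interior, and inside them regions covered 41.4% ± 1.19 of the bases (SD, n = 3).

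The members had a median width of 3797, 3722 and 3951 bp (mean 3823 ± 117, SD, n = 3). Those under 2 kb were 16.5% ± 1.90 of the members and held 5.12% ± 0.55 of the region bases. Those of 12 kb or more numbered 42, 58 and 58, or 5.64%, 7.03% and 7.35% of the members, against a background of 5.5%, 6.82% and 7.16% in the whole lists, so wide regions were about as common as in the lists at large. In the combined list it was 84 members (8.81%) against 8.3%. They held 21.7% ± 2.83 of the region bases. Width and score went together, with a Spearman correlation across members of 0.78, 0.80 and 0.78 in the 3 replicates, where members are not independent replicates.

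The next question was where the 3R interior differs from the interiors of X, 2L and 3L. In the share of covered bases it lay between them. Its 16.9% ± 1.16 stood below the 19.0% ± 1.40 of X and above the 15.6% ± 0.94 of 2L and 15.8% ± 0.97 of 3L (SD, n = 3). Although these SDs overlap, 3R ranked second after X, 3L next and 2L last in each of the 3 replicates, and the same order held for regions per Mb. Against the mean of the other interiors the log2 ratio was 0.0098 ± 0.0042 for covered share (above 0 in 3 of 3 replicates) and 0.0025 ± 0.0087 for regions per Mb (above 0 in 2 of 3). It was 0.0095 ± 0.015 for median width (above 0 in 2 of 3) and -0.054 ± 0.040 for median gap (below 0 in 3 of 3). The signs of regions per Mb and median width were not resolved from the spread. A two-sided permutation test that flips signs exactly gave p = 0.25 for covered share and median gap, 0.75 for regions per Mb and 0.5 for median width, or 0.417, 0.417, 0.75 and 0.625 after Benjamini-Hochberg adjustment over 5 comparisons. With 3 replicates 0.25 is the smallest p this test allows, so no comparison could pass and the values are to be read against their SDs. With lists cut to equal numbers of regions the log2 ratio of covered share was -0.00056, and the sign for median gap turned in 3 settings given in the closing section.

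**Figure D2:**
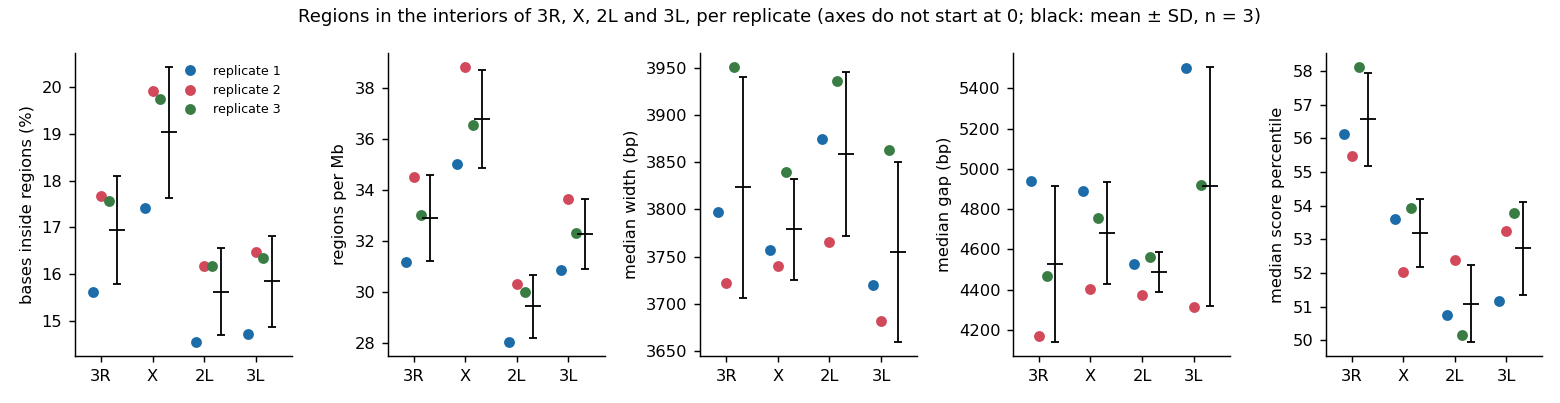
Share of bases inside regions, regions per Mb, median width, median gap and median score percentile in the interiors of 3R, X, 2L and 3L, with a point for each replicate and the mean ± SD beside them (n = 3, axes do not start at 0). 3R lies below X and above 2L and 3L in covered share in every replicate, and it has the highest median score percentile in every replicate.

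The score rank was the measure in which 3R stood highest. The median score percentile of its members was 56.1, 55.5 and 58.1 in replicates 1, 2 and 3 (mean 56.6 ± 1.38), against 53.2 ± 1.02 on X, 51.1 ± 1.15 on 2L and 52.7 ± 1.38 on 3L (SD, n = 3). It was the highest of the 4 interiors in every replicate. In the combined list the median was 54.9 on 3R, against 51.6 on X, 53.1 on 2L and 53.8 on 3L. The lead of 3R over 2L and 3L was smaller there. The difference from the mean of the other medians was 4.28, 2.92 and 5.49 percentile points (mean 4.23 ± 1.29, above 0 in 3 of 3 replicates, exact two-sided sign-flip permutation p = 0.25, the smallest possible, adjusted 0.417). Percentiles within a list sum to a fixed total, so a higher rank on 3R means lower ranks elsewhere in the list. Along the arm the medians were 57.1 ± 2.33, 57.4 ± 1.67, 56.6 ± 1.80 and 55.1 ± 1.85 in the 4 parts from the centromere side (SD, n = 3). Not every part stood above those of the other interiors, since part 1 of X had 55.6 ± 1.96.

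At the extremes of the lists 3R had no such lead. Members in the highest-scoring 10% of a list numbered 86, 82 and 96, or 11.5%, 9.94% and 12.2%, against a background of 10% by construction. The mean of 11.2% ± 1.15 lay near the 11.4% ± 0.89 of X and 11.4% ± 0.46 of 2L and above the 8.84% ± 0.15 of 3L (SD, n = 3). In the lowest-scoring 10% 3R had 11.5% ± 0.73 of its members, the highest mean of the 4 interiors, against 3.97% ± 0.62 on X, 10.7% ± 1.46 on 2L and 10.3% ± 0.71 on 3L. More members of 3R lay above the list median, 56.6% ± 0.84 against 53.2% ± 0.91 on X, 51.4% ± 1.52 on 2L and 53.4% ± 1.77 on 3L (SD, n = 3). Fewer lay in the class just below the list median, between it and the lowest-scoring 25%, namely 19.5% ± 1.17 against 30.8% ± 1.51, 22.7% ± 1.00 and 22.7% ± 2.50 on X, 2L and 3L. Among the highest-scoring 50% of each list alone the difference in median percentile was 0.069 ± 0.55 (SD, n = 3), within the spread between replicates.

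By width, the regions of 2 to 4 kb ranked higher on 3R than on the other interiors in every replicate. Their median score percentile was 45.6 ± 0.28 on 3R, against 41.3 ± 0.41 on X, 38.0 ± 3.77 on 2L and 42.2 ± 0.62 on 3L (SD, n = 3), and the lowest replicate of 3R, at 45.4, lay above the highest of the other interiors, at 42.9. The lead was narrower in the combined list, where this width class had 46.5 on 3R, 45.8 on X, 45.8 on 2L and 44.7 on 3L. Regions under 2 kb had 7.76 ± 0.60 on 3R, close to 7.76 ± 1.41 on 2L and 7.85 ± 0.345 on 3L and below the 19.3 ± 0.83 of X. Regions of 4 to 8 kb had 71.1 ± 1.65 on 3R, between the 68.6 ± 2.01 of 3L and the 72.7 ± 1.15 of X. Regions of 8 to 12 kb had a lower rank on 3R than on 3L, with 77.2 ± 2.40 against 79.5 ± 4.24 on X, 76.9 ± 1.62 on 2L and 85.0 ± 1.97 on 3L, and every replicate of 3R lay below the lowest of 3L, at 83.0. Regions of 12 kb or more had 87.9 ± 1.69, close to X and 2L, at 87.2 ± 1.63 and 87.4 ± 0.75, and above 3L, at 79.3 ± 2.76. The width classes were set after the lists were seen, and their differences were not tested.

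**Figure D3:**
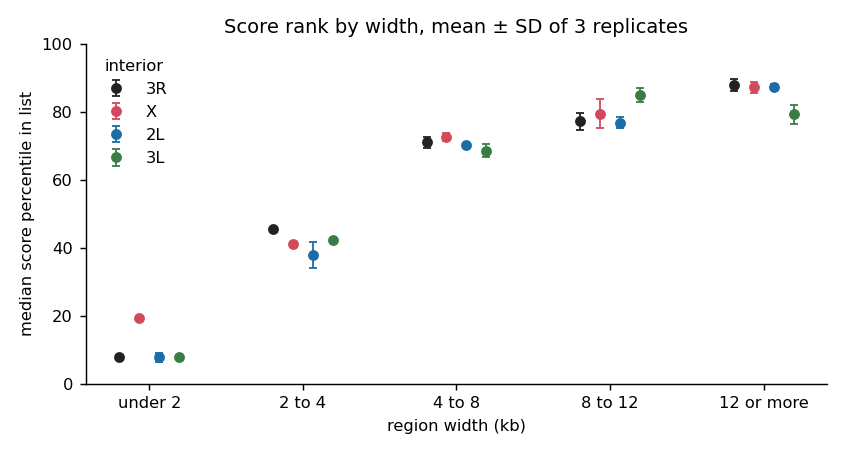
Median score percentile within the list against region width (5 classes, kb) for the interiors of 3R, X, 2L and 3L, as the mean ± SD of 3 replicates. The 3R point for 2 to 4 kb, at 45.6, lies above those of the other interiors, while X alone stands high under 2 kb, at 19.3.

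The strongest members were found again in every replicate, with a single exception. The highest score of the combined members, 2.17, was at 3R from 18563455 to 18578113. Its replicate regions were 14246, 14486 and 14332 bp wide and at score percentile 99.9, 99.7 and 99.7. The third highest ran from 25860947 to 25870417, with percentiles of 99.7, 99.5 and 99.1 and widths of 9467, 9293 and 9561 bp. The fourth, from 23777106 to 23791615, is the region that closes the longest empty stretch. The fifth, from 11787479 to 11794112, was shorter, at 5807, 6190 and 5978 bp, and at percentile 99.3, 99.5 and 99.5. A further region that ranked high in each list, from 24873607 to 24883463, was at 99.3, 98.8 and 99.5. Of these 5, 4 lay in windows of neither class and the region from 25860947 lay beyond the last full window.

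The exception was the second highest combined score, 2.11, at 3R from 3533298 to 3535364. This region of 2067 bp had no counterpart in any replicate, and the nearest replicate region was 62659 bp away. It was the only combined member in the highest-scoring 10% that lacked a region in all 3 replicates: of 97 such members 96, or 99.0%, had one in each.

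The widest combined members varied in rank, and several were in more than 1 piece in a replicate. The widest ran from 21038972 to 21086164 (47193 bp) and had 2 regions in replicates 1 and 3 and a single region of 46912 bp in replicate 2. The score percentile of the region with the largest overlap was 62.5, 79.4 and 82.0. The next, from 12283935 to 12314952 (31018 bp), lay in a rich window, and its largest replicate regions were 29230, 28845 and 28178 bp wide at percentile 77.1, 86.9 and 87.7. The third, of 30133 bp, began at 7219727 and was at 91.5, 88.5 and 97.1. The fourth, of 28914 bp, began at 5576576 and was at 85.9, 88.3 and 89.1. The fifth, of 26966 bp, began at 19930860 and was at 68.8, 76.1 and 55.1. The last was in 2, 3 and 3 pieces in the replicates, with the largest piece at 10256, 10395 and 12187 bp. Replicate regions covered 74.3% to 99.4% of each of these 5, and 3 of them lay in rich windows.

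The replicate lists agreed closely on 3R, about as well as on 2L and 3L. The Jaccard index, which is the bases shared by a pair of lists over the bases in either, was 0.822 between replicates 1 and 2. Replicates 1 and 3 gave 0.823, and replicates 2 and 3 gave 0.858. The mean was 0.835 ± 0.020 (SD over 3 pairs, which share lists and are not independent). X had 0.808 ± 0.021, while it was 0.839 ± 0.016 on 2L and 0.833 ± 0.022 on 3L. Of the members of replicate 1, 97.0% overlapped a region of replicate 2 by 1 base or more and 95.8% a region of replicate 3. In the other direction it was 82.8% and 84.7%. Replicate 1 had fewer regions, and whether this accounts for the lower shares was not tested.

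Edges and ranks were shared as well. Between 74.4% and 75.4% of members overlapped a single region of the other list that in turn overlapped no other. At the ends of these, the replicates placed the edge a median 170 bp apart between replicates 1 and 2, 178 bp between 1 and 3 and 138 bp between 2 and 3. Of the edges, 83.5% ± 2.41 were within 500 bp (SD over 3 pairs). Averaged over pairs, the median distance was 162 bp on 3R, against 190 bp on X, 155 bp on 2L and 153 bp on 3L. The Spearman correlation of scores over shared regions was 0.852, 0.859 and 0.918 for the same pairs, over 723, 714 and 745 regions. These regions share their sequence and are not independent replicates. The mean correlation was 0.876 ± 0.036 on 3R, against 0.856 ± 0.012 on X, 0.904 ± 0.028 on 2L and 0.887 ± 0.022 on 3L (SD over 3 pairs). The score percentile of a region moved by a median 7.64, 6.96 and 4.92 points between lists, and 10% of regions moved by more than 26.1, 23.6 and 16.2 points.

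Most combined members were found in every replicate. Of the 953, 614 (64.4%) had an overlapping region in each of the 3 replicates (61.3 to 67.5% by the 95% Clopper-Pearson interval, which is exact and covers counting error alone), against a background of 57.9% in the whole combined list. The background in the interiors of X, 2L and 3L was 64.7%, with 61%, 67% and 66.6% on each, so the share on 3R is that of arm interiors at large. The 614 held 88.1% of the combined length on 3R. A further 77 members (8.08%) were in 2 replicates, 115 (12.1%) in 1 and 147 (15.4%) in none, where the background in the whole list is 18.1%. Of the 77 members in 2 replicates, 58 were missing from replicate 1, 6 from replicate 2 and 13 from replicate 3. Of the 115 in 1 replicate, 9 were in replicate 1, 57 in replicate 2 and 49 in replicate 3. Counting those in no replicate, 311, 211 and 226 combined members lacked a region in replicates 1, 2 and 3.

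Support rose steeply with width. The combined list was made for the same replicate set, so a replicate region is not independent support for a combined one. Overlap needed 1 shared base, which a wide region meets more easily, so part of the rise may be built in. Of 254 combined members under 2 kb, 3 (1.18%) were in all 3 replicates and 139 in none. Of 274 members of 2 to 4 kb, 189 (69.0%) were in all 3, and of 253 members of 4 to 8 kb, 250 (98.8%). All 88 members of 8 to 12 kb and all 84 of 12 kb or more were in all 3. The other interiors had the same rise. On X, 2L and 3L the share in all 3 was 0.44%, 0.61% and 0.49% under 2 kb. It was 63.5%, 73.5% and 77.1% at 2 to 4 kb, and 95.6%, 96.7% and 97.2% at 4 to 8 kb. Members in no replicate had a median width of 1187 bp, against 5409 bp for those in all 3, and a median score percentile of 15.3 against 71.1. Of the 147, 2 lay above the median score of the list. The narrowest member of a replicate list was 1302 or 1303 bp wide, and 82 of the 147 were at most 1300 bp wide, below that width. Whether the region caller was set to leave out such widths in the replicates is not stated by any source used here.

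**Figure D4:**
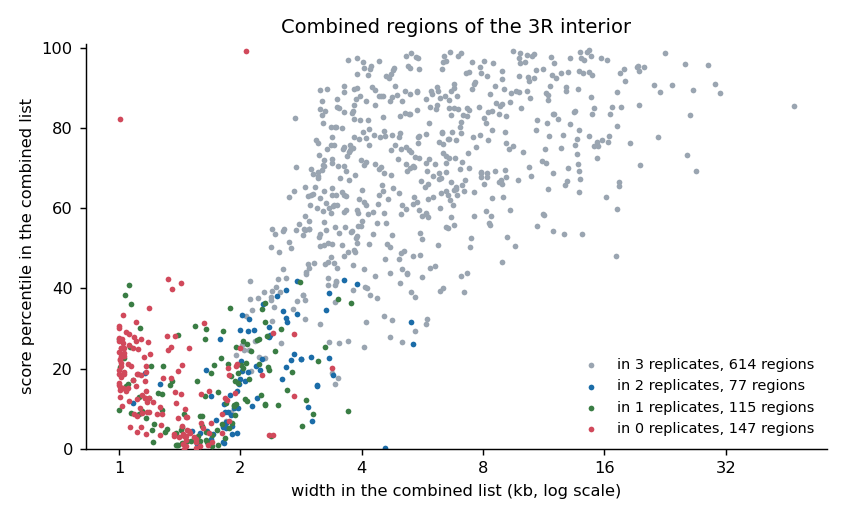
Score percentile against width (kb, log scale) for the 953 combined members of the 3R interior, each point a region coloured by the number of replicates in which it was found. Most of the 147 regions in no replicate gather at the narrow, low-ranking corner. Those of 2067 bp and 1006 bp lie above the median score, at percentile 99.3 and 82.2. The widest regions are in all 3 replicates.

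The limits of the interior fell between the following regions. On the centromere side the first combined member, from 2163879 to 2178524, was 14646 bp wide at percentile 78.1, and the last region outside, from 1833479 to 1837621, was 4143 bp wide at 72.0. On the telomere side the last combined member, from 25874374 to 25884828, was 10455 bp wide at 87.6, and the first region outside, from 25959168 to 25961852, was 2685 bp wide at 53.3.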

How the data were processed

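Per the submitters' processing notes, the authors' aligner was Bowtie 0.12.7. The deposited lists give enriched regions on FlyBase release 5 (per the file headers). Not given in the sources used here are the caller, its thresholds and the handling of duplicate reads. Each region has a deposited score whose scale no header names, so scores were only ranked within a list. The deposited start and end positions gave widths and gaps. Chromatin was fixed with 1.8% formaldehyde, per the labels. By the labels ChIP 1 goes with input 3, ChIP 2 with input 1 and ChIP 3 with input 2, so shared numbers pair nothing. Groups came from the labels.

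Interiors leave out 2 Mb at each arm end, and 2R was not analysed here. Overlap required 1 shared base. Regions, windows and stretches were named by rule: the 5 strongest, widest and most consistently high-ranking members, the 5 highest and lowest windows, the classes of windows and the 5 longest empty stretches. Members, rules and lists were chosen with earlier results of these data known. Borders of windows, bins of 50 kb, groups, width classes and the 4 parts of the arm were added after the lists were seen. Differences were tested by an exact sign-flip permutation test over 3 replicates. Alternatives were other selections of regions, windows, arm ends and overlaps and leaving out each replicate. The overlap code was tested on simulated data, with 0 mismatches in 50 pairs of lists. Scripts ran under Python 3.11.15 with pandas 2.3.3 and numpy 2.4.6 for tables, scipy 1.17.1 for tests and matplotlib 3.10.9 for plots.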

Additional observations from a re-analysis of the deposited data

How the results depend on the processing

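Of 5 results compared with the other interiors, the difference in median score percentile was 0.069 ± 0.55 points with the highest-scoring 50%, within the spread between replicates, 3.53 to 5.46 in the other settings and 3.60 to 4.89 with a replicate left out. Equal numbers of regions reversed covered share (log2 ratio -0.00056), regions per Mb (-0.033) and median gap (0.025). Covered share was larger with 4 Mb left out at each arm end, 0.073 ± 0.0013, and with the highest-scoring 50%, 0.074 ± 0.0043 (SD, n = 3). Regions per Mb was 0.029 ± 0.017 and 0.107 ± 0.017 in the same settings. Leaving out each replicate gave -0.0018 to 0.0069 for regions per Mb, which reversed without replicate 2. Median gap was also 0.056 without shared scores (regions whose score recurs in their list) and 0.032 with regions under 500 bp apart joined. Median width was -0.049 with the highest-scoring 50%. The cause was not tested. The Jaccard index was 0.780 without shared scores and 0.822 to 0.858 with a replicate left out. Combined members in all 3 replicates were 73.0% with the highest-scoring 50%, 58.6% without shared scores, 68.9% with regions joined, 86.8% with equal numbers of regions, 56.6% when overlap had to reach 50% of both regions' length and, in both remaining replicates, 65.1 to 70.5% with a replicate left out. Scores had a rank correlation of 0.817 with the highest-scoring 50%, 0.936 at 50% overlap and 0.852 to 0.918 with a replicate left out. The number of windows in a class follows their size and the percentile. Windows of 500 kb gave 3 rich and 3 poor of 47, and the 20th and 80th percentile 17 and 17. Windows of 100 kb gave 24 rich and 45 poor of 239 on 3R. The same size gave 24 and 25 of 184 on X, 17 and 39 of 190 on 2L and 17 and 42 of 205 on 3L. Windows of 250 kb begun midway between the main ones gave 11 poor of 95 on 3R. X, 2L and 3L then had 4 of 73, 12 of 75 and 6 of 81. Sign-flip p-values cannot fall below 0.25 and say nothing about stability. Read depth limits single scores to an unknown extent. No paired analysis was possible because regions are listed for ChIP libraries only.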
